A study of Rattus norvegicus with 9 samples.

Results

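The genes described here are 10 ligands and receptors of the TGF-beta superfamily, Tgfb1, Tgfb2, Tgfb3, Inhba, Bmp4, Bmp6, Tgfbr1, Tgfbr2, Tgfbr3 and Bmpr1b, in the rat brain after focal ischemia and reperfusion. A gene was taken as present when the gene name of a non-control probe was its symbol, and all 10 were found, with 13 of the 30367 probes of the array. Tgfb2 had 3 probes, Tgfbr2 had 2 and the other 8 genes had 1 each. Where a gene had several probes, the one with the brightest mean signal over the 9 arrays stands for it. All 13 probes were well above background on all 9 arrays.

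One-color arrays (Agilent SurePrint G3 Rat) had been hybridised with RNA from the infarcted hemisphere of male Sprague Dawley (SD) rats at day 14, 3 samples per group with 1 array each, which the study calls biological replicates. The Sham group was operated on without occlusion and received solvent. The I/R group had 2 h of right middle cerebral artery occlusion followed by reperfusion, and the DHI group had the same injury and a daily tail vein dose of Danhong injection (DHI), an extract of Salvia and safflower. The age of the rats was not given in the sources used here, and the model is an occlusion of 1 artery studied at 1 time point. All 3 groups shared strain, sex and tissue. The Sham and I/R arrays lay on 1 slide and the DHI arrays on another with its own scan, so the slide and the treatment cannot be told apart in any comparison with DHI.

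Between 75.2% and 78.9% of the probes of an array were well above background, and the 75th percentile of the signal lay between 1816.3 and 3464.4 intensity units. The tissue was brain by its neuron markers, of which all 7 were detected on every array. Each array was also placed on an axis where the mean Sham array is 0 and the mean I/R array is 1, over all tested probes. The Sham arrays lay between -0.040 and 0.11 and the I/R arrays between 0.58 and 1.24, while DHI 1 lay at 0.92, DHI 2 at -0.011 and DHI 3 at 0.18. DHI 1 therefore stood with the I/R arrays and DHI 2 and DHI 3 with the Sham arrays, and the counts and main values of the DHI group are given with and without DHI 1. No gene was targeted in this design, so the label of DHI 1 could not be checked from the data, and every value of the DHI group depends on it.

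The ligands of this superfamily are secreted dimers that bring together type I and type II receptor kinases on the cell surface. The type I receptor then phosphorylates Smad proteins, which enter the nucleus with Smad4 and change transcription. Tgfbr2 binds the TGF-beta ligands and activates Tgfbr1, Tgfbr3 (betaglycan) is a co-receptor that presents ligand, and Bmpr1b is a type I receptor for BMPs. In injured brain the TGF-beta branch is known for limiting microglial activation and for driving scar and matrix genes, and the BMP branch for steering neural precursors toward astrocytes.

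The sequences below are the probes of Tgfb1, Bmp6, Bmp4 and Tgfbr2 (the dimmer of its 2 probes), shown because Tgfb1, Bmp6 and Tgfbr2 are among the genes that rose and Bmp4 is a second BMP ligand to set beside Bmp6. Each has 2 reading frames without a stop codon. They are written 5′ to 3′ in lower case, as the array files give them. In the rn4 coordinates of the array files, the Tgfb1 probe lies at chr1:80910123-80910182 on the plus strand, the Bmp6 probe at chr17:32380203-32380262, the Bmp4 probe at chr15:22283362-22283421 and the Tgfbr2 probe at chr8:120608686-120608745, the latter 3 on the minus strand.
Tgfb1: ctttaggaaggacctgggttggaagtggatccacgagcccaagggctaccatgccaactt
Bmp6: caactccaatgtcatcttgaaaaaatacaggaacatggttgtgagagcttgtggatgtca
Bmp4: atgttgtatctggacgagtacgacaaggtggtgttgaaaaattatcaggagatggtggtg
Tgfbr2: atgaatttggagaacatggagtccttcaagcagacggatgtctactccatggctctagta
Among the 78 pairs that the 13 probes form, the longest run of bases that any pair shared was 12. The overall similarity of the probes was not computed, and binding of a probe to related transcripts was not tested. The Tgfb1 probe was printed in 10 spots on each array and the others in 1 or 2, and spots were averaged.

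The next sequences are the 250 bases before the start of Tgfb1, Tgfbr1, Tgfbr2 and Bmp6 (RefSeq, GRCr8), shown because these 4 genes moved together below. Capitals mark GC boxes (GGGCGG on either strand). The windows lie at chr1:90324062-90324311, chr5:66449148-66449397, chr8:124761470-124761719 and chr17:26675262-26675511, with Tgfb1 and Tgfbr1 on the plus strand and Tgfbr2 and Bmp6 on the minus strand.
Tgfb1: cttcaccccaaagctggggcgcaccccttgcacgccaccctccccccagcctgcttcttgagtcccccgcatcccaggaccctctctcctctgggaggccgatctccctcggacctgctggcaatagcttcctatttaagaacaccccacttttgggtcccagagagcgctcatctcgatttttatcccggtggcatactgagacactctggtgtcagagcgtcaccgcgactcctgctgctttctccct
Tgfbr1: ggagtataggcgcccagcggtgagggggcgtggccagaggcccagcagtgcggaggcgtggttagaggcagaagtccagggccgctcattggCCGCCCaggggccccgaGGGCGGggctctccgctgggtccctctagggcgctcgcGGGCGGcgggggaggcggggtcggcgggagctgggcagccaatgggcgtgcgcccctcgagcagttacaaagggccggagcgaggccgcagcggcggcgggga
Tgfbr2: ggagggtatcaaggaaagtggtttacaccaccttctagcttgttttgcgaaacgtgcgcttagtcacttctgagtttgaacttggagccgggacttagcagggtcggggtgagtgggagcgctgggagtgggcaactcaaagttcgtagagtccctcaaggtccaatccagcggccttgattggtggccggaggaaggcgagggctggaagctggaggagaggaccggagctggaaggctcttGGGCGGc
Bmp6: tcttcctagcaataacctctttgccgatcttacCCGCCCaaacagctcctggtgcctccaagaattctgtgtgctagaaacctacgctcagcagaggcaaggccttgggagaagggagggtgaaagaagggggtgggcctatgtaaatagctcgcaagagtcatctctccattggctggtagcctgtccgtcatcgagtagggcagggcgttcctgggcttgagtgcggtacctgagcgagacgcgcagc
The window of Tgfbr1 held 3 GC boxes, those of Tgfbr2 and Bmp6 held 1 each and that of Tgfb1 held 0. Of the 10 genes, 9 had an entry in the promoter table, and the GC box was found in the windows of 5 of these 9 (Bmp4, Bmp6, Tgfbr1, Tgfbr2 and Tgfbr3) and in 30.5% of all 33469 promoters. The Smad box CAGAC, searched on both strands, was in the Bmp4 window and in 42.9% of all promoters. The GC-rich Smad site GGCGCC was in the windows of Tgfbr1 and Tgfbr3 and in 8.69% of all promoters. The AP-1 motif TGANTCA was in 0 of the 9 windows and in 6.34% of all promoters.

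**Figure D1:**
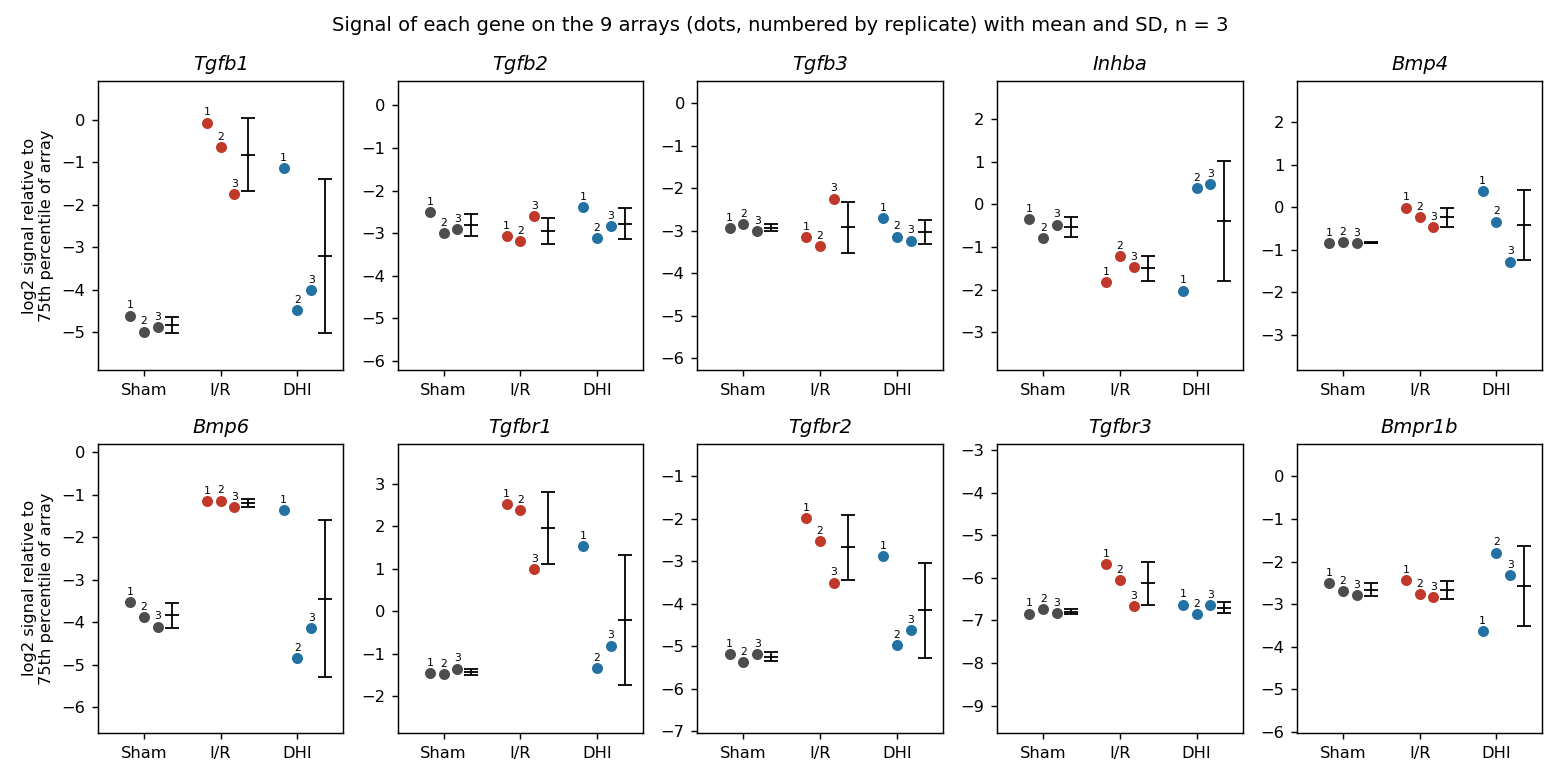
Log2 signal over the array's 75th percentile (vertical axis, the same span of units in each panel) for the 10 genes, by group. Dots are single arrays numbered by replicate, and the bars beside them are the mean and SD of 3 arrays. Tgfb1, Tgfbr1, Tgfbr2 and Bmp6 are high on the 3 I/R arrays and on DHI 1, and low on the Sham arrays, DHI 2 and DHI 3.

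To ask what ischemia and reperfusion did to the pathway at day 14, I/R was compared with Sham. Of the 10 genes, 5 rose and 0 fell at the thresholds of the study (unadjusted p under 0.05 and a fold change over 1.5). Tgfb1, Bmp6, Tgfbr1 and Tgfbr2 rose between 5.94-fold and 16.1-fold, and Tgfbr3 rose 1.59-fold. At these thresholds 43.1% of the 23747 tested probes were called, 20.8% as higher and 22.3% as lower. The median log2 fold change was 0.63 over the 10 genes and -0.097 over all tested probes. With a Benjamini-Hochberg adjusted p, limma called 4 of the 10 (Tgfb1, Bmp6, Tgfbr1 and Tgfbr2), as it did 31.5% of all probes. These adjusted calls did not withstand the loss of most arrays. Leaving out 1 array in turn, Tgfb1, Tgfbr1 and Tgfbr2 kept an adjusted p under 0.05 in 3 of 9 fits (without I/R 3, DHI 1 or DHI 2) and Bmp6 in 2 of 9 (without DHI 1 or DHI 2). Without any 1 of Sham 1, Sham 2, Sham 3, I/R 1, I/R 2 and DHI 3, and also without scaling, 0 or 1 of the 23747 probes passed the adjusted p. Without scaling between arrays 60.9% of the called probes were higher, against 48.3% with it. Tgfb1, Bmp6, Tgfbr1, Tgfbr2 and Tgfbr3 kept their direction under every alternative tried, and the first 4 passed the unadjusted thresholds under each. A fit of only the Sham and I/R arrays, which share a slide, called 7 of the 10 genes and 45.5% of all probes. The I/R and Sham groups did not overlap in 7 of the 10 genes, and in 62.5% of all probes.

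Among the ligands, Tgfb1 encodes the isoform of TGF-beta that myeloid cells and platelets make in quantity. Its log2 signal, scaled to each array's 75th percentile, was -4.60, -4.98 and -4.88 on the Sham arrays and -0.06, -0.64 and -1.75 on the I/R arrays. Every I/R array was above every Sham array, and I/R 3 was the lowest of its group. The mean rose from -4.82 ± 0.19 to -0.82 ± 0.86 (SD of 3 arrays), a log2 fold change of 4.005 ± 0.83 (SE, 95% interval 2.09 to 5.92) or 16.1-fold, with a limma adjusted p of 0.0396. Only 1.47% of all tested probes had a higher log2 fold change.

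Bmp6, a BMP ligand that is best known for setting hepcidin and iron levels, was the second ligand that rose. Its log2 signal was -3.53, -3.88 and -4.10 on the Sham arrays and -1.16, -1.14 and -1.29 on the I/R arrays. The I/R arrays lay close together and well above the Sham arrays. The log2 fold change was 2.64 ± 0.77 (SE), which is 6.25-fold, and the limma adjusted p was 0.0414.

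The other 4 ligands did not pass the thresholds. Bmp4, a ligand that directs precursors toward astrocytes, read -0.83, -0.82 and -0.84 on the Sham arrays and -0.01, -0.24 and -0.46 on the I/R arrays. The groups did not overlap, and the log2 difference of 0.60 (95% interval -0.25 to 1.45) had a limma unadjusted p of 0.144. Inhba, the subunit of activin A, read -0.34, -0.79 and -0.48 on the Sham arrays and -1.82, -1.22 and -1.48 on the I/R arrays. All I/R arrays were lower than all Sham arrays, by a mean log2 difference of -0.97 (95% interval -2.38 to 0.44, limma unadjusted p 0.151). The SD of Inhba was 1.42 in the DHI group, 0.23 in Sham and 0.30 in I/R, and that of Bmp4 was 0.83, 0.013 and 0.23, and limma pools the spread of the 3 groups. With the methods' t-test, which uses only the groups compared, both passed its threshold, and 6 of the 10 genes were called against 39.8% of all probes.

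Tgfb2 and Tgfb3 encode the isoforms that neurons and glia are known to express. The log2 signal of Tgfb2 was -2.51, -3.001 and -2.91 on the Sham arrays and -3.07, -3.18 and -2.60 on the I/R arrays. The groups overlapped, and the log2 difference was -0.14 (95% interval -0.73 to 0.44). The 2 other probes of Tgfb2 gave 0.44 and -0.19, and neither passed the thresholds. For Tgfb3 the values were -2.94, -2.85 and -3.02 in Sham and -3.15, -3.37 and -2.25 in I/R, with a log2 difference of 0.01 (95% interval -0.67 to 0.69).

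Among the receptors, Tgfbr1 (the type I kinase) read -1.45, -1.48 and -1.35 on the Sham arrays and 2.52, 2.38 and 0.99 on the I/R arrays. The groups were far apart, again with I/R 3 nearest to Sham. The log2 fold change was 3.39 ± 0.73 (SE), which is 10.5-fold, with a limma adjusted p of 0.0396. Tgfbr2, its type II partner, read -5.18, -5.37 and -5.18 in Sham and -1.99, -2.52 and -3.50 in I/R. The 3 I/R arrays were all above Sham, in the same order as for Tgfb1 and Tgfbr1. The log2 fold change was 2.57 ± 0.57 (SE), 5.94-fold, with a limma adjusted p of 0.0396. Its second probe, whose sequence is printed above and which lies elsewhere in the transcript, gave 2.61 ± 0.54 (SE).

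Tgfbr3 was dim, with intensities from 22.4 to 25.9 on the Sham arrays and from 34.2 to 51.5 on the I/R arrays. Its log2 signal was -6.84, -6.73 and -6.82 in Sham and -5.67, -6.05 and -6.66 in I/R. I/R 3 was barely above Sham, and the log2 fold change of 0.67 ± 0.24 (SE) had a limma unadjusted p of 0.0244 and an adjusted p of 0.0624. It was called under 11 of 19 alternatives, and no longer with quantile normalization, normexp, the authors' table or the methods' t-test, nor when Sham 1, Sham 3, I/R 1 or I/R 2 was left out. Bmpr1b read -2.50, -2.69 and -2.78 in Sham and -2.44, -2.76 and -2.83 in I/R. Its groups overlapped fully, with a log2 difference of -0.02 (95% interval -0.98 to 0.95).

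**Figure D2:**
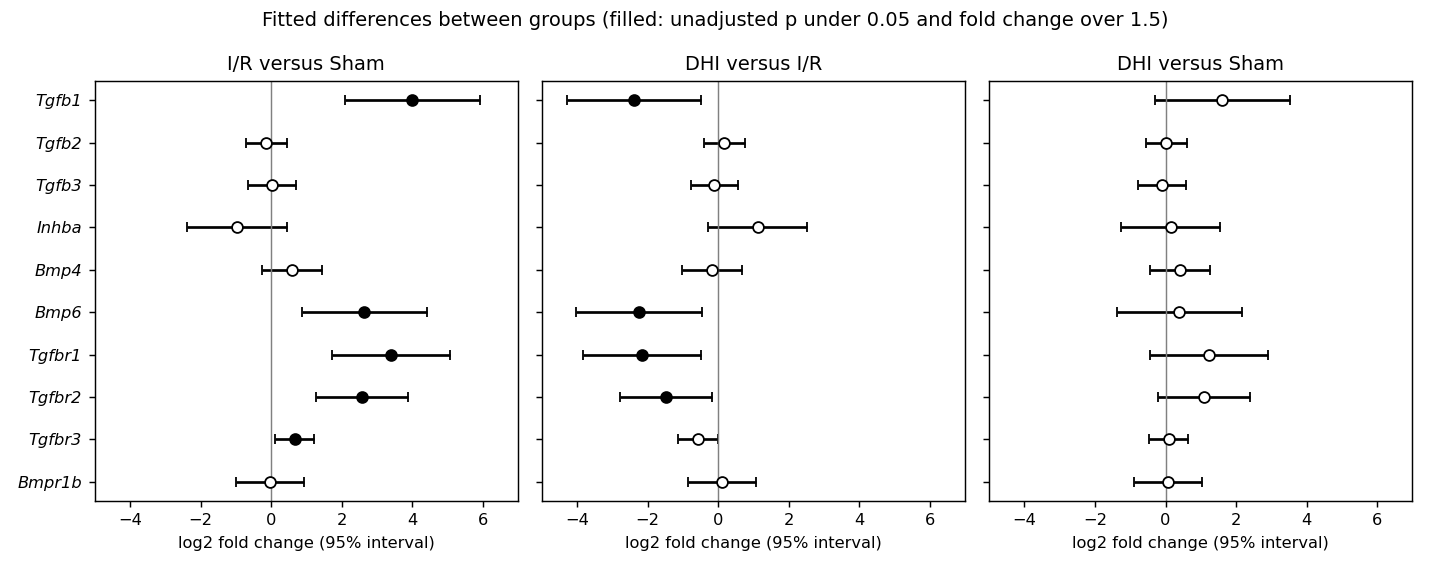
Log2 fold change with its 95% interval (horizontal axis) for the 10 genes in the 3 comparisons, from limma over the 9 arrays. Filled points passed an unadjusted p under 0.05 and a fold change over 1.5, which 5 genes did for I/R against Sham, 4 for DHI against I/R and 0 for DHI against Sham.

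To ask whether Danhong injection altered these genes in injured brain, DHI was compared with I/R. Tgfb1, Bmp6, Tgfbr1 and Tgfbr2 fell at the thresholds of the study and 0 of the 10 rose. In this comparison 21.9% of all tested probes were called, 10.5% as lower and 11.5% as higher. Among the called probes 52.2% were higher, against 63.7% with normexp background correction and 4.80% without scaling, which moved the median of all probes by over 0.1. The median log2 fold change was -0.38 over the 10 genes and 0.10 over all probes, and -0.36 over all probes without scaling. With the adjusted p limma called 0 of the 10 and 0.00421% of all probes, and the methods' t-test called 0 of the 10 and 1.97% of all probes. The groups did not overlap in 1 of the 10 genes (Bmp6), against 9.54% of all probes.

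The DHI values of these 4 genes were split in the same way. Tgfb1 read -1.14 on DHI 1, -4.48 on DHI 2 and -4.004 on DHI 3. DHI 1 was within the I/R range, and the other two were just above the Sham arrays. The log2 fold change against I/R was -2.39 ± 0.83 (SE, 95% interval -4.30 to -0.48), with a limma unadjusted p of 0.0205 and an adjusted p of 0.196. For Tgfbr1 the DHI arrays read 1.54, -1.35 and -0.81, and for Tgfbr2 they read -2.88, -4.97 and -4.61. DHI 1 was again within the I/R range for both receptors. Their log2 fold changes against I/R were -2.17 ± 0.73 and -1.48 ± 0.57 (SE), each with an adjusted p of 0.196.

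Bmp6 read -1.36, -4.84 and -4.14 on the DHI arrays. DHI 1 was just under the lowest I/R array, and DHI 2 and DHI 3 were lower than every Sham array. The log2 fold change against I/R was -2.25 ± 0.77 (SE), with a limma unadjusted p of 0.0192 and an adjusted p of 0.196. In all 4 genes DHI 1 was the highest DHI array and DHI 2 the lowest.

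The calls in DHI versus I/R depended on single arrays. Without DHI 1, 6 of the 10 genes were called beside 45.2% of all probes. Tgfb1, Tgfbr1, Tgfbr2 and Bmp6 then fell by 3.42, 3.04, 2.12 and 3.30 on the log2 scale, while Inhba rose by 1.94 and Bmpr1b by 0.63. Their limma adjusted p-values were 0.047 or lower. Over all probes, limma called 9527 with the adjusted p without DHI 1, against 1 with it. DHI 1 was set apart because it stood with the I/R arrays in these same data. These p-values are therefore descriptive and cannot be taken as a test of treatment. Without DHI 2, 0 of the 10 genes were called beside 3.95% of all probes, and without DHI 3, 0 beside 4.75%. Without I/R 1 (5.82% of all probes called), or without I/R 2 (6.99%), Bmp6 was the single gene called.

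The other 6 genes did not pass the thresholds against I/R. Inhba ran the opposite way to Tgfb1, at -2.03 on DHI 1 and at 0.39 and 0.47 on DHI 2 and DHI 3. DHI 1 was lower than every I/R array and the other two were higher than every Sham array, and the log2 difference from I/R was 1.12 (95% interval -0.29 to 2.53). Bmpr1b was split likewise, at -3.63 on DHI 1 and at -1.79 and -2.31 on DHI 2 and DHI 3. Its log2 difference was 0.10 (95% interval -0.87 to 1.06). Bmp4 read 0.37, -0.33 and -1.28 on the DHI arrays, which spread across both other groups.

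Tgfbr3 read -6.63, -6.85 and -6.63 on the DHI arrays, close to Sham. Its log2 difference from I/R was -0.58, a fold of 1.49 just under the threshold, with a limma unadjusted p of 0.0442, and with normexp background correction the log2 difference turned to 0.20. Tgfb2 read -2.39, -3.12 and -2.83 on the DHI arrays and Tgfb3 read -2.71, -3.14 and -3.24. Both overlapped with I/R, with log2 differences of 0.17 (95% interval -0.42 to 0.75) and -0.11 (95% interval -0.79 to 0.57). The other probes of Tgfb2 gave 0.58 and 0.03 against I/R, and neither passed the thresholds.

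Against Sham, the treated arrays showed 0 of the 10 genes past the thresholds of the study, beside 3.58% of all probes. Of these called probes 70.4% were higher, and between 5.21% (without scaling) and 92.9% (normexp) under the other scalings and background correction. With the adjusted p limma called 0 probes in all, while 1294 had an unadjusted p under 0.05, and the methods' t-test called 0 of the 10 genes and 1.89% of all probes. The largest log2 differences were those of Tgfb1 (1.62, 95% interval -0.30 to 3.53), Tgfbr1 (1.22, 95% interval -0.45 to 2.90) and Tgfbr2 (1.09, 95% interval -0.22 to 2.40). All 3 DHI arrays were above all Sham arrays in these 3 genes, but with the second probe of Tgfbr2 the groups overlapped. Over all probes, the DHI and Sham groups did not overlap, in either direction, in 18.6%. Tgfb2 was at 0.02 with its brightest probe and at 1.02 and -0.16 with the others, and none of them passed. DHI 1 carried most of the difference in Tgfb1, Tgfbr1 and Tgfbr2. Without DHI 1, Tgfb1 was 0.58 above Sham, Tgfbr1 0.35 and Tgfbr2 0.45 on the log2 scale, none of them called, and Bmp6 fell by 0.65 and Inhba and Bmpr1b rose by 0.97 and 0.61 at an unadjusted p under 0.05 (limma adjusted p 0.732 to 0.739), beside 3.5% of all probes. Without DHI 2, Tgfb1, Tgfbr1 and Tgfbr2 passed the thresholds instead, at 2.25, 1.79 and 1.49 on the log2 scale, beside 10.6% of all probes, and without DHI 3 Bmp4 was the single gene called, at 0.85, beside 3.44%.

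Cell type markers moved with these genes. Of 8 microglia and macrophage markers, 7 rose in I/R and 6 fell in DHI versus I/R, where Cx3cr1 passed in neither comparison and Itgam not in DHI versus I/R. Cx3cr1, the fractalkine receptor, lay in the other direction from the rest, with a log2 difference of -0.998 (95% interval -2.21 to 0.21) in I/R versus Sham, where the groups did not overlap, and of 0.90 (95% interval -0.31 to 2.11) in DHI versus I/R. Their summed signal, in multiples of each array's 75th percentile, was 10.67 to 13.1 on the Sham arrays and 65.6 to 187 on the I/R arrays. On DHI 1, DHI 2 and DHI 3 it was 103, 14.7 and 17.2, so that I/R 3 was the lowest of its group and DHI 1 the highest of its group, as for Tgfb1, Tgfbr1 and Tgfbr2. Of 7 fibroblast and meninges markers, 7 rose in I/R and 6 fell in DHI versus I/R, with a summed signal of 6.42 to 10.66 in Sham, 76.2 to 120.0 in I/R and 106, 6.58 and 7.57 on the DHI arrays. Of 7 neuron markers, 7 fell in I/R and 6 rose in DHI versus I/R, with a summed signal of 62.6 to 70.5 in Sham, 5.88 to 30.7 in I/R and 20.2, 65.5 and 51.3 on the DHI arrays. The part of the cell mixture in the values of the 10 genes was not tested, and in whole tissue fewer cells of a type and less RNA per cell cannot be told apart. Choroid plexus markers varied from array to array, with a summed signal of 93.7 on I/R 3, 138 on DHI 1 and 74.7 on DHI 3, and of 7.59 or less on the other 6 arrays. Of 5 choroid plexus markers, 1 rose in I/R and 0 were called in DHI versus I/R. In DHI versus Sham 2 of the 5 rose, Ttr by 6.21 and Folr1 by 3.89 (log2), beside 3.58% of all probes. With the adjusted p 0 of them were called, and without DHI 1 Ttr alone passed the unadjusted thresholds.

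Other marker lists were split between the arrays as well. Of 7 astrocyte markers, 4 rose and 1 fell in I/R, with a summed signal of 63.1 to 70.8 in Sham, 85.6 to 118 in I/R and 90.8, 63.4 and 67.9 on the DHI arrays, and 2 fell in DHI versus I/R. Of 6 pericyte and smooth muscle markers, 3 rose in I/R and 1 fell in DHI versus I/R, and of 5 T cell markers, 3 rose and 2 fell. Both lists summed higher on every I/R array and on DHI 1 than on the other 5 arrays. All 3 red blood cell markers went the other way, lower in I/R and higher in DHI versus I/R, with a summed signal of 3.75 to 29.7 in Sham, 2.27 to 3.34 in I/R and 7.33, 38.9 and 22.6 on the DHI arrays. Of 7 endothelial markers, 2 rose in I/R and 0 were called in DHI versus I/R, and of 6 oligodendrocyte markers, 0 were called in I/R and 1 rose in DHI versus I/R. Without DHI 1, 7 microglia and macrophage markers and 7 fibroblast and meninges markers fell in DHI versus I/R, 7 neuron markers and Cx3cr1 rose, 4 astrocyte markers fell and 1 rose, and 3 pericyte and smooth muscle markers fell. The part of these lists in the values of the 10 genes was not tested either.

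**Figure D3:**
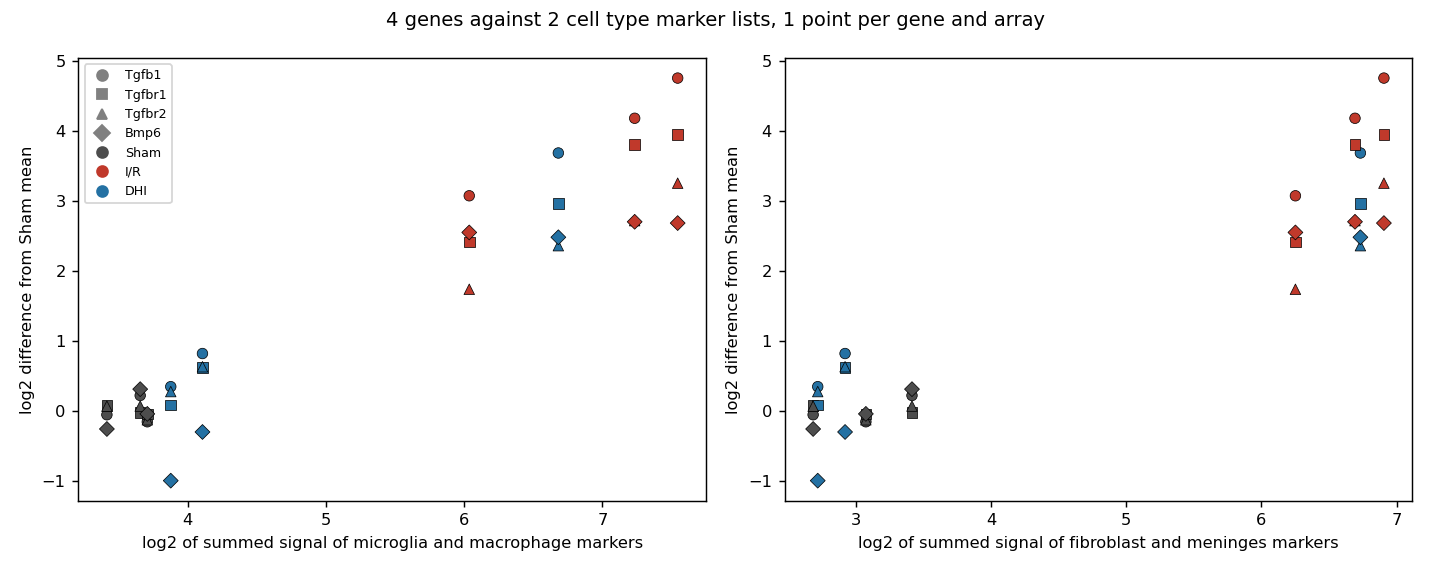
Log2 difference from the Sham mean (vertical axis) of Tgfb1, Tgfbr1, Tgfbr2 and Bmp6 against the log2 of the summed signal of microglia and macrophage markers (left) and of fibroblast and meninges markers (right), 1 point per gene and array, colored by group. The Sham arrays, DHI 2 and DHI 3 lie at the low end and the I/R arrays and DHI 1 at the high end on both axes, with no array between.

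Over the 9 arrays the 3 genes whose signal was most like that of Tgfb1, among 15585 genes, were C1qa, a complement subunit made by microglia, Laptm5, a lysosomal protein of leukocytes, and Ncf4, a subunit of the phagocyte NADPH oxidase. The Pearson r of each with Tgfb1 was 0.999 over the 9 arrays. The arrays share the split of DHI 1 from DHI 2 and DHI 3 described above, and no r within a group was computed.

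To place the 10 genes in their pathway, 95 other genes of it were listed by role, of which 89 were on the array and 79 were tested. In I/R versus Sham 26 of the 79 rose and 16 fell, and limma called 23 with the adjusted p, beside 31.5% of all probes. The median log2 fold change of the 79 was 0.19. The called share was 53.2%, beside 43.1% of all probes. Against I/R, the DHI group had 15 lower and 5 higher, 0 of them with the adjusted p, a share of 25.3% beside 21.9% of all probes. Without DHI 1, 27 were lower and 18 higher, among them all 20 genes called with it, a share of 57.0% beside 45.2%. Against Sham 3 were higher and 3 lower, 7.59% beside 3.58%, and without DHI 1 again 3 and 3, of which 3 were called in both. The counts by role that follow are small and are read beside these shares.

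Of 17 other ligands tested, 3 rose and 4 fell in I/R. Gdf3, a ligand of the growth and differentiation factor group, was below the well-above-background mark on every Sham array, and I/R exceeded it at least 15.9-fold. Gdf15, a stress-induced ligand, was likewise at least 9.997-fold higher. Both are among the 3 counted as higher, but they passed the filter on dim probes only through the I/R arrays. No p-value is therefore given for them. Bmp7 rose by a log2 fold change of 2.08 ± 0.72 (SE) and Bmp3, an atypical BMP that opposes other BMPs, fell by 2.41 ± 0.72. Bmp7 fell and Bmp3 rose in DHI versus I/R, by log2 values of -1.82 and 1.99 with an adjusted p of 0.196 each, and without DHI 1 the values were -2.77 and 2.53. Gdf3 and Gdf15 were well above background on 1 of the 3 DHI arrays (DHI 1), so that no fold against I/R is given for them.

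Of 10 other receptors tested, 4 rose and 3 fell in I/R. Endoglin (Eng), a co-receptor of endothelial and myeloid cells, rose by 2.45 ± 0.58 (SE, log2) and Bambi, a decoy receptor without a kinase, by 1.26 ± 0.48. Acvr2b, an activin type II receptor, fell by 1.30 ± 0.39. Acvr1c, a type I receptor for activins and Nodal, had a log2 difference of -1.94 ± 0.89 that did not pass the thresholds. With treatment, 2 of the 10 receptors fell against I/R, with Eng at -1.81 ± 0.58 (-2.47 without DHI 1), and 1 rose. Without DHI 1, 3 of the 10 fell and 4 rose.

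Of 12 Smad proteins and proteins that anchor them or turn them over, 1 rose and 3 fell in I/R. Smurf2, a ubiquitin ligase that removes receptors and Smads, rose by 0.68 ± 0.21 (SE, log2). Zfyve9 (the Smad anchor SARA), Ppm1a (a Smad phosphatase) and Nedd4l (a ubiquitin ligase) fell by 1.29 ± 0.51, 0.65 ± 0.24 and 0.62 ± 0.26.

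Genes that hold TGF-beta latent or release it gave 3 higher and 0 lower of 7 tested in I/R. Ltbp2, Ltbp1 and Ltbp3, which are latent TGF-beta binding proteins of the matrix or relatives of them, rose by 3.45 ± 0.88, 1.07 ± 0.46 and 0.88 ± 0.32 (SE, log2). Itgb6, the beta subunit of an integrin that frees TGF-beta, had a log2 difference of 2.26 ± 1.101 that did not pass. Of these 7 genes, 0 were called in DHI versus I/R, and without DHI 1, 2 fell and 2 rose. Antagonists and binders went both ways, with 4 higher and 4 lower of 11. Bgn and Dcn, matrix proteoglycans that bind TGF-beta, rose by 3.37 ± 0.80 and 3.20 ± 0.96, and the BMP antagonist Grem1 fell by 2.41 ± 0.68. Dcn and Bgn fell in DHI versus I/R by 2.81 ± 0.96 and 2.20 ± 0.80 (limma adjusted p 0.196 each), and without DHI 1 their log2 fold changes were -4.09 and -3.26.

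Of 14 known targets of TGF-beta, 7 rose, 1 fell and 6 were not called in I/R. Their log2 fold changes ran from -1.20 to 4.78 with a median of 1.13, and 9 of the 14 were above 0. The targets named next are among those with the largest changes and do not stand for the list. Col1a1, Col1a2 and Timp1, which are collagen chains and a metalloproteinase inhibitor, rose by 4.78 ± 1.18, 3.41 ± 0.95 and 4.14 ± 0.93 (SE, log2). Against I/R, 6 of the 14 fell and 0 rose in the DHI group. Col1a1, Timp1 and Col1a2 fell by 3.05 ± 1.18, 2.61 ± 0.93 and 2.48 ± 0.95, each with a limma adjusted p of 0.196. Without DHI 1 their log2 fold changes were -4.66, -3.85 and -3.78, and 8 of the 14 targets were lower. Col1a1, Col1a2 and Dcn are also in the fibroblast list above, and whether these levels follow TGF-beta signaling or cell content was not tested.

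Of 8 known targets of BMPs, 4 rose and 1 fell in I/R. Msx1 and Msx2, homeobox genes, rose by 2.67 ± 0.74 and 1.28 ± 0.44 (SE, log2) and Id3, an inhibitor of helix-loop-helix factors, by 2.09 ± 0.56. Its relative Id2 fell by 1.08 ± 0.23. Id3 fell in DHI versus I/R by 1.43 ± 0.56 and Id2 rose by 0.59 ± 0.23, and the other 6 were not called. Without DHI 1, Id3 fell by 2.17 and Id2 rose by 0.80, and 4 more of the 8 fell.

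**Figure D4:**
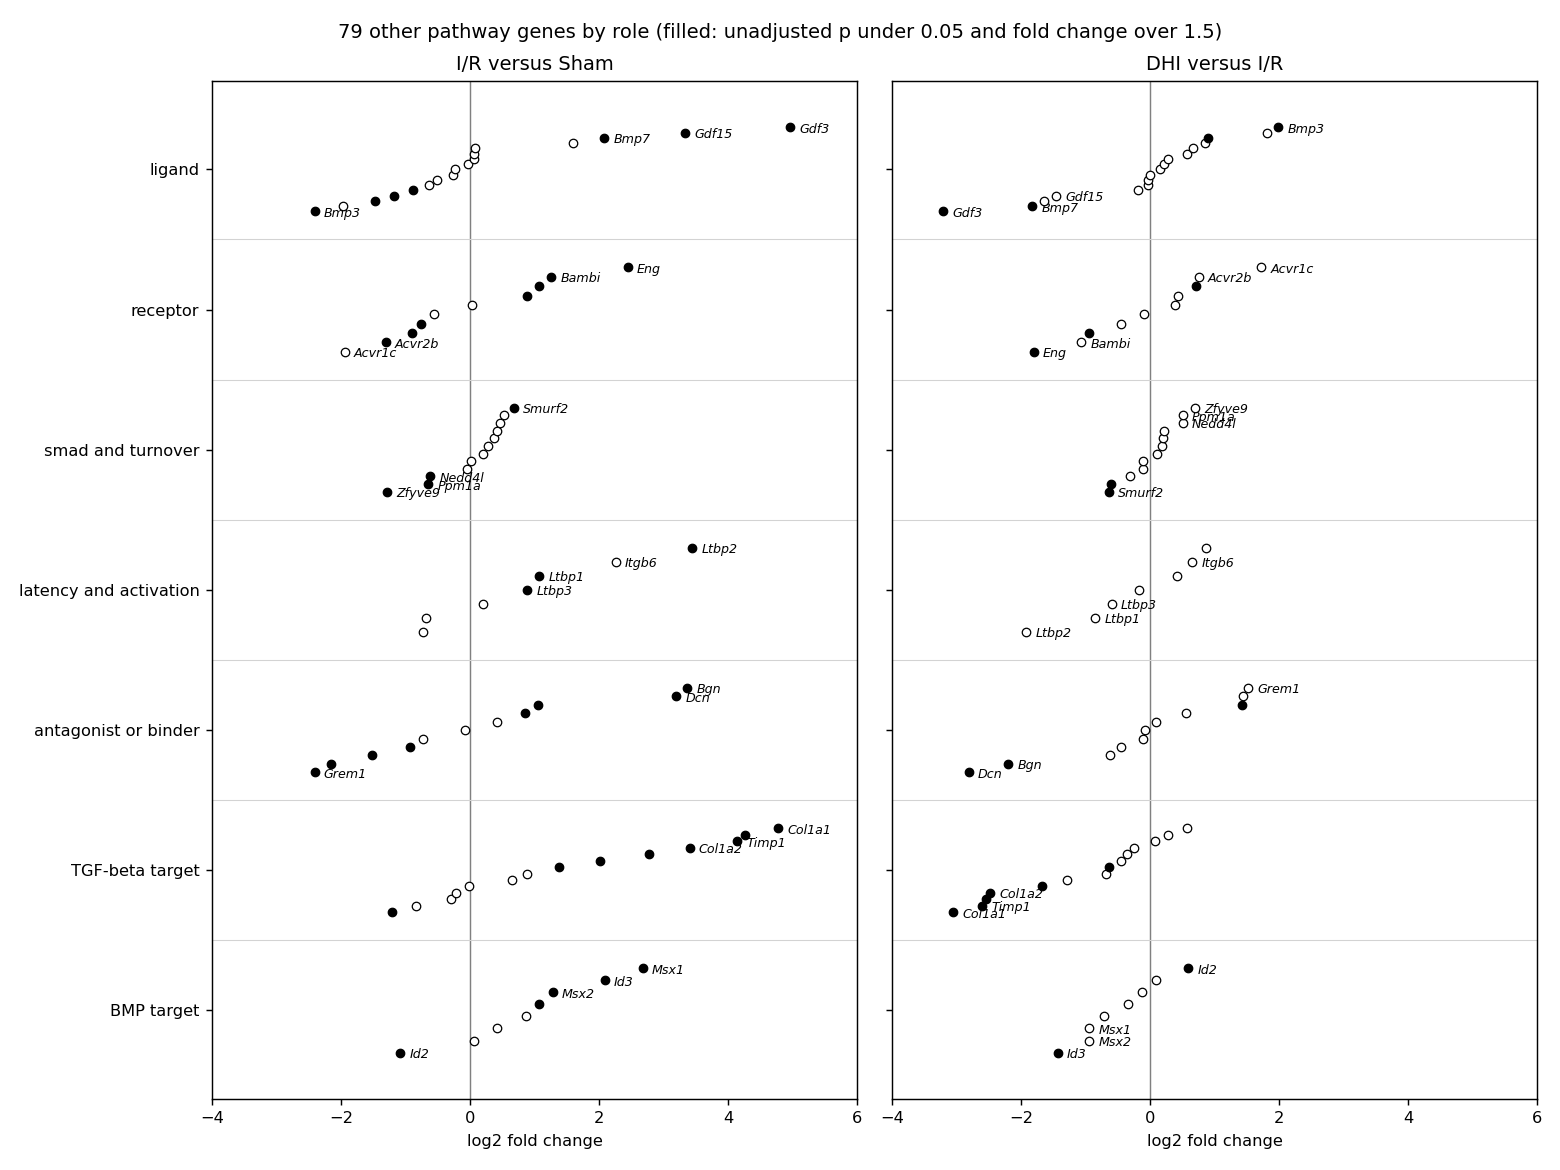
Log2 fold change (horizontal axis) of the 79 other pathway genes tested, by role (vertical axis), in I/R versus Sham (left) and DHI versus I/R (right). Each point is a gene, filled where it passed an unadjusted p under 0.05 and a fold change over 1.5, and the named genes are those described in the text. In I/R versus Sham 26 filled points lie to the right and 16 to the left, and in DHI versus I/R 5 lie to the right and 15 to the left.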

How the data were processed

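Per the labels and the study's methods, 9 brain samples (3 per group) were hybridised to one-color Agilent arrays with 62976 spots. For each array the authors deposited spot intensities from Agilent Feature Extraction 10.7.1.1, with the background removed spot by spot but no scaling across arrays. A table of log2 values that the authors deposited, with the same distribution on every array, served as an alternative. The array number limits the precision.

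Outlier-marked spots (392 to 725 per array) and control spots were left out. A probe's value was the mean over its spots of log2 intensity minus the 75th percentile of its array. The 23747 probes that were well above background throughout 1 group or more were tested with limma 3.58.1 (R 4.3.3, with data.table, version 1.17.8), as 1 model over 9 arrays with 6 residual degrees of freedom, and p-values were adjusted (Benjamini-Hochberg) over all of them. A probe was called at an unadjusted p under 0.05 and a fold change over 1.5, the study's thresholds. A bound ("at least") sets the brighter group's mean against, per array, the higher of the dim probe's signal and the lowest signal well above background. The labels do not say that samples are separate animals, and the study calls them biological replicates. The scripts were tested on simulated data.

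The 10 genes, the pathway and marker lists and their tests were chosen with earlier results of these data known. Pathway genes named are up to 4 per role with the largest log2 fold change in I/R versus Sham, and 3 genes most correlated with Tgfb1 are named. Some genes that this rule names are counted but not reported here. Alternatives were quantile normalization, no scaling, normexp (offset 50), the authors' table, other filters, 2 groups only, array weights, a replicate block, the methods' t-test, the dimmest probe, the adjusted p, and leaving out each array. Gdf1, Tdgf1, Smad6, Ski, Nrros and Itgav had no probe of that name. Bmpr1b had no promoter entry. The marker lists without DHI 1 were added after seeing the data. No column of values was left unused.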

Additional observations from a re-analysis of the deposited data

How the results depend on the processing

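In I/R versus Sham, 4 to 7 of the 10 genes were called under every alternative, and leaving out 1 array gave 4 to 7. Tgfb1, Bmp6, Tgfbr1 and Tgfbr2 passed the unadjusted thresholds under each, but their limma adjusted p was above 0.05 without scaling and without any 1 of Sham 1, Sham 2, Sham 3, I/R 1, I/R 2 and DHI 3 (up to 0.133), and that of Bmp6 also without I/R 3 and with no filter on dim probes. In DHI versus I/R, leaving out 1 array gave 0 to 6 genes, array weights 7, the methods' t-test 0 and the adjusted p 0, against 4. In DHI versus Sham it gave 0 to 3, normexp 1, array weights 4 and the replicate block 2 (Tgfb1 and Tgfbr2), against 0. For the other pathway genes, leaving out 1 array gave 27 to 46 calls in I/R versus Sham (42 in all), 1 to 45 in DHI versus I/R (20) and 0 to 8 in DHI versus Sham (6). The adjusted p gave 23, 0 and 0. In DHI versus I/R, 2 groups alone gave 11, array weights 51 and the t-test 1, and in DHI versus Sham array weights gave 12 and the t-test 0. The causes were not tested.

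No pairing of the arrays by replicate number was evident, but with 3 arrays per group the check cannot exclude one. Of 9 same-number pairs, 4 had a correlation of deviations over 0.1 (-0.34 to 0.48). Of the 9 arrays, 5 correlated best with their own number. With the replicate block 5, 4 and 2 of the 10 genes were called in the 3 comparisons, and 44, 26 and 8 other pathway genes.

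The log2 differences that changed sign were not called with all 9 arrays, though some were called under an alternative, such as Bmp6 in DHI versus Sham without DHI 1 (-0.65). In I/R versus Sham, Tgfb2 was 0.0536 and Bmpr1b 0.18 without scaling, and Tgfb3 was -0.0725 with quantile normalization, -0.0765 in the authors' table and -0.37 with array weights. Leaving out 1 array gave -0.32 to 0.0054 for Tgfb2, -0.32 to 0.24 for Tgfb3 and -0.14 to 0.060 for Bmpr1b. In DHI versus I/R, Tgfb2 was -0.29 and Bmpr1b -0.36 without scaling, Tgfb3 0.10 with array weights and Tgfbr3 0.20 with normexp. Leaving out 1 array gave -0.028 to 0.34 for Tgfb2, -0.33 to 0.23 for Tgfb3, -0.57 to 0.25 for Bmp4 and -0.29 to 0.63 for Bmpr1b. In DHI versus Sham without scaling, Tgfb2 was -0.24, Tgfbr3 -0.17, Inhba -0.12 and Bmpr1b -0.18. With quantile normalization and in the authors' table, Tgfb2 was -0.0707 and -0.0728, Tgfbr3 -0.13 in both and Bmpr1b -0.0111 and -0.0135. The dimmest probe gave -0.16 for Tgfb2, normexp 0.0128 for Tgfb3, and array weights -0.30 for Bmp4 and -0.25 for Bmp6. Leaving out 1 array gave -0.17 to 0.19 for Tgfb2, -0.25 to 0.0094 for Tgfb3, -0.28 to 0.97 for Inhba, -0.65 to 1.09 for Bmp6 and -0.31 to 0.61 for Bmpr1b.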
